A study of Mus musculus with 6 samples.

Results

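The enzymes of glycolysis and of the pentose phosphate pathway were followed as 32 genes of the 46078 in the deposited tables. The genes were chosen by name, from the hexokinases to the lactate dehydrogenases and from glucose 6-phosphate dehydrogenase to the synthetases of phosphoribosyl pyrophosphate (PRPP), with phosphofructokinases and transporters set aside. All 32 were found, each in 1 row. Glycolysis breaks glucose down to pyruvate in the cytosol and yields ATP, and lactate dehydrogenase turns pyruvate into lactate so that the pathway can go on. The pentose phosphate pathway branches off at glucose 6-phosphate and gives NADPH for synthesis and ribose 5-phosphate, from which PRPP and then nucleotides are made. Many steps can be run by several isozymes, products of different genes that catalyse the same reaction and that differ between tissues, and early embryos are known for a high use of glucose.

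The libraries hold polyadenylated RNA of mesoderm, the germ layer that forms at the primitive streak, explanted from wild-type mouse embryos of stage E7.25 (E7.25 to E7.5 in the series text, which also names the TCF/Lef:H2B-GFP reporter strain). Explants attached to fibronectin and were grown for 27 h in all, or 24 h by the series text. The 6 libraries form 3 groups of 2: control explants, explants given 1 µM of the inhibitor labelled PD for 16 h, and explants given 10 µM YZ9 for 16 h. The compound YZ9 is described as blocking PFKFB3, the enzyme that makes an activator of phosphofructokinase. Whether controls received a vehicle is not stated, no age or sex is labelled, and the labels tie no library to an embryo or a culture. Every p-value reflects only how far these 6 libraries spread, which for the controls may be technical.

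Depth was 21253194 to 27810161 counts per library. Counts of Xist and of Y-linked genes differed within the treated groups: both controls, PD replicate 1 and YZ9 replicate 1 read as male, and PD replicate 2 and YZ9 replicate 2 as female. The libraries of each treated group thus came from different embryos, while for the controls this is not known. Of 14 mesoderm markers, 10 were abundant enough to be tested, among them Hand1 and Bmp4, while the early markers Mesp1, Tbx6, T and Msgn1 were at or near 0 in every library. The libraries also differed in other cell types. The summed level of 8 red-cell markers ran from 20.96 to 7802 CPM, the counts of a library scaled to a common size, that of 8 visceral endoderm markers from 4.97 to 91.1 CPM with PD replicate 1 highest, and that of 6 cardiac muscle markers from 235 to 1903 CPM with PD replicate 2 lowest. In RNA of whole explants, fewer cells of a type and less RNA per cell cannot be told apart.

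The upstream sequences of 5 of the enzyme genes are shown: those of Pgam2, Hk2, Prps2 and Eno3, whose values the results below turn on, and that of Pgam1, the other mutase, for comparison with Pgam2. Each run holds the 250 bases before a RefSeq start in GRCm38.p6, 5′ to 3′ on the gene's strand. Capitals mark ACGTG or GCGTG, the core that hypoxia-inducible factors (HIF) bind, on either strand, and in Pgam2 a match to the MEF2 motif, which muscle transcription factors bind.
Pgam1: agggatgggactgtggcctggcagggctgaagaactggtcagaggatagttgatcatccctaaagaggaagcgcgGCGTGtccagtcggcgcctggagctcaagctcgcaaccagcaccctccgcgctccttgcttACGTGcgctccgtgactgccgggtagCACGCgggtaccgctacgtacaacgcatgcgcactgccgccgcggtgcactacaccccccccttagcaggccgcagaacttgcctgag
Pgam2: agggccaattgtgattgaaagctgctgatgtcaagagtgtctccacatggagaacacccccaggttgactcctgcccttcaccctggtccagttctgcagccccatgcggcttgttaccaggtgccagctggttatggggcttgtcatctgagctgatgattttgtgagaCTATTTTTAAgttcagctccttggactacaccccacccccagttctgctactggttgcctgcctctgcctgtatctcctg
Hk2: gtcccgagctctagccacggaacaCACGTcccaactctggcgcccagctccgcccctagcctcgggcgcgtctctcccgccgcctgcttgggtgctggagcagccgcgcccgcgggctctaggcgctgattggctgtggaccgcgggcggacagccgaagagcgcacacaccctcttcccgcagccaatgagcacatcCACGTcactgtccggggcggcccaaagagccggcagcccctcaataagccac
Prps2: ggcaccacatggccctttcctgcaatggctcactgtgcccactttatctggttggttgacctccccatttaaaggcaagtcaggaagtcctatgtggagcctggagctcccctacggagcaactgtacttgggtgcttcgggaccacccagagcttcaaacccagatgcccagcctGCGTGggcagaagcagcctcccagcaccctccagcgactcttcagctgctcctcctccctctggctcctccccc
Eno3: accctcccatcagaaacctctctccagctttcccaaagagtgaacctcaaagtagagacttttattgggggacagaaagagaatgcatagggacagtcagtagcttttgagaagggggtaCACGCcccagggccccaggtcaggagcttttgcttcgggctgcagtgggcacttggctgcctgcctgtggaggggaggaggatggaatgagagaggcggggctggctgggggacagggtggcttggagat

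The window of Pgam1 lies at chr19:41911621-41911870 on the plus strand, that of Pgam2 at chr11:5803797-5804046 on the minus strand, that of Hk2 at chr6:82774455-82774704 on the minus strand, that of Prps2 at chrX:167382750-167382999 on the minus strand and that of Eno3 at chr11:70656926-70657175 on the plus strand. None of the 5 windows holds an annotated exon. Pgam1, the mutase of most tissues, had 3 HIF cores, while Pgam2, the muscle form, had 0 of them and 1 MEF2 match, 80 to 71 bases before its start. That motif was searched for after the Pgam2 window had been read, so its match there is a description. It stood in 1 of the 42 windows of the 32 genes (2.38%), in 2.92% of 32851 windows of all genes and in 1.55% of 14299 windows of tested genes. A HIF core stood in 30 of the 42 windows (71.4%), against 38.6% of all windows and 54.4% of windows of tested genes. The E-box CACGTG, which contains the core, stood in 3 windows (7.14%, against 6.02% and 7.95%), and the ETS core CCGGAA in 8 (19.0%, against 12.03% and 20.4%). Median GC content was 57.8% in the enzymes' windows, 59.6% in windows of tested genes and 52.4% in all. A match is a run of letters and no measured site.

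In the control explants Aldoa, Pkm, Eno1 and Ldha had the highest levels of the 32 genes. On the scale of CPM per kilobase of merged exons, Aldoa stood at 347 ± 15.6, Pkm at 332 ± 83.8, Eno1 at 313 ± 33.1 and Ldha at 218 ± 1.78 (SD, n = 2), which places these 4 at percentiles 98.5 (Ldha) to 99.2 (Aldoa) of the 15568 genes tested. Their enzymes are aldolase, which splits fructose 1,6-bisphosphate, pyruvate kinase, enolase, and the muscle-type subunit of lactate dehydrogenase. The levels of Aldoa, Pkm and Eno1 differed by less than the spread between the Pkm libraries, and Ldha lay below all 3. Prps1, Gapdh, Pgk1, Tpi1, Taldo1, Ldhb and Pgam1 followed at 97.0 to 53.5 CPM per kilobase. Hk2 at 19.7 and Gpi1 at 19.1 handle the first reactions of glucose. On this scale they stood at about the level of Pgam2 at 17.5 and Prps2 at 17.1, neighbours that did not differ beyond their spread. G6pdx, the entry enzyme of the pentose phosphate pathway, was at 9.89 ± 0.452. The lowest were Rpia at 0.389, Eno2 at 0.331, Aldoc at 0.276 and Hkdc1 at 0.0257. The order of genes depends on the exon length assigned to them. Gpi1 has 6452 bases of merged exons but 3195 in its longest transcript, while Pgam2 has 840 by both. In CPM without length, control means were 1684 for Eno1, 1662 for Pkm, 1010 for Aldoa and 720 for Ldha. Summed, the 32 genes made up 0.643% to 0.818% of all counts, lowest in PD replicate 1 and highest in PD replicate 2.

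**Figure D1:**
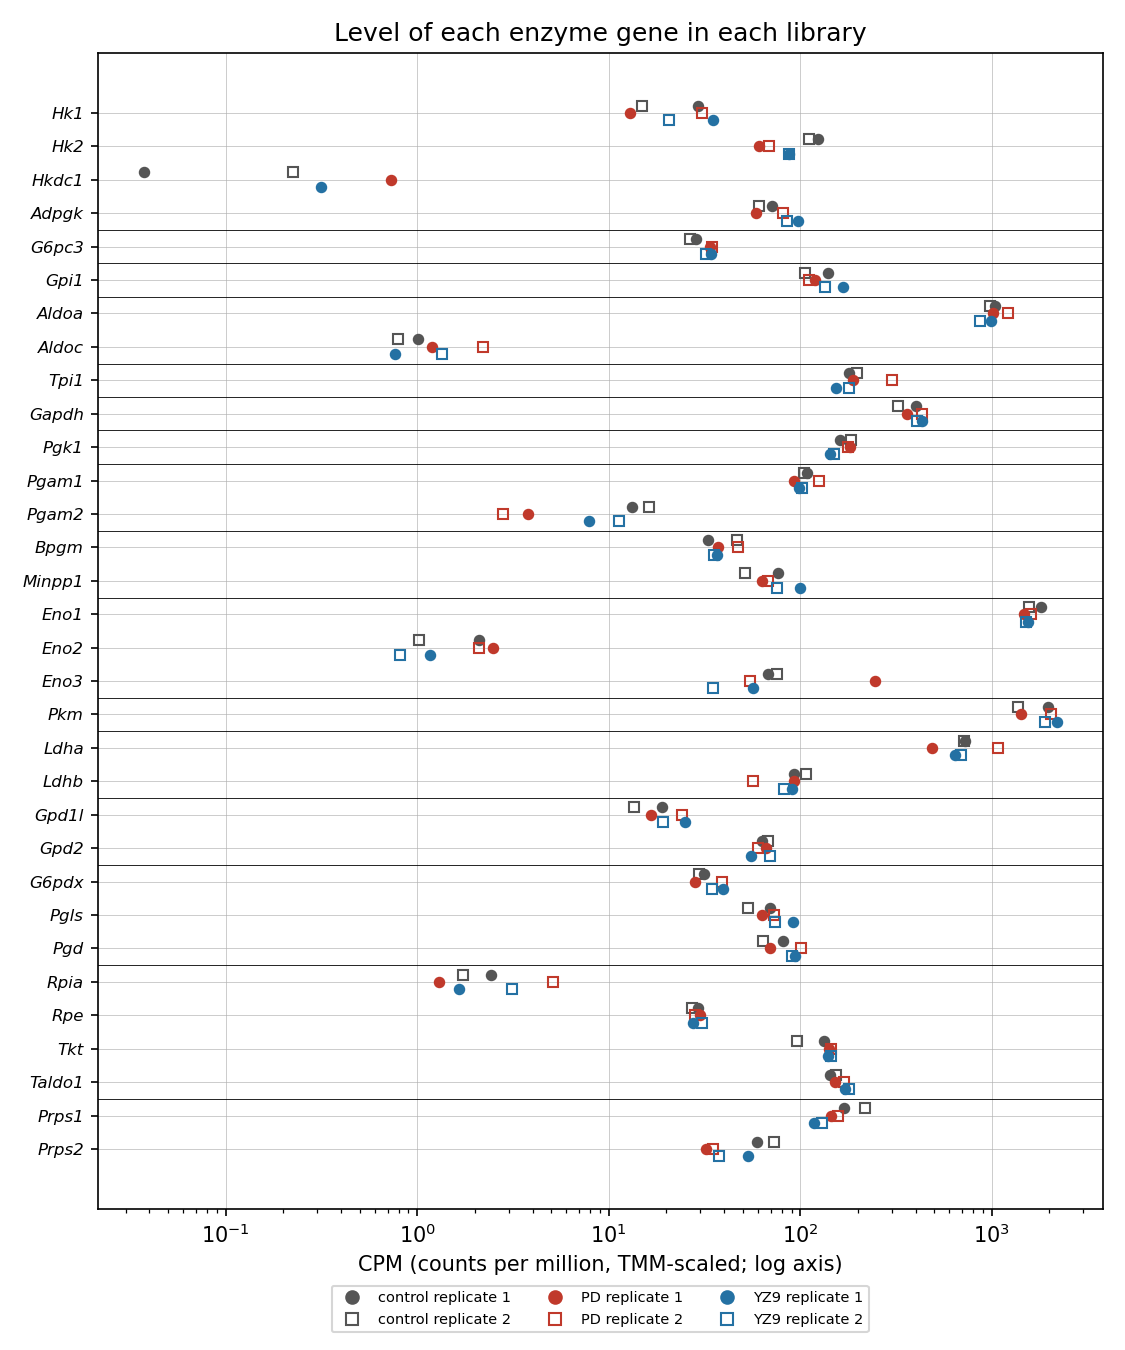
CPM (TMM-scaled, log axis) of the 32 enzyme genes in each of the 6 libraries, in pathway order with lines between steps. Filled circles are replicate 1 and open squares replicate 2. The 2 libraries of Hkdc1 with 0 counts are not drawn. Hk2, Pgam2 and Prps2 sit lower in both PD libraries than in both controls, and the Eno3 and Ldha libraries of PD lie far apart.

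Isozyme choice was one-sided at most steps. Aldoa, the aldolase of muscle and of most embryonic cells, made up 99.9% of aldolase CPM per kilobase in controls, and Aldoc, the brain form, the rest. Enolase RNA of the genes followed was, in controls, 88.2% ± 1.79 Eno1 (SD, n = 2), 11.7% ± 1.83 Eno3, the muscle enolase, and 0.0917% Eno2, the neuronal one. Eno1b, a copy of Eno1 at 346 and 309 CPM in controls, is not counted in the enolase shares. At the mutase step Pgam1 held 75.4% ± 3.25 and Pgam2 24.6% ± 3.25. Lactate dehydrogenase RNA was 77.4% ± 2.01 Ldha and 22.6% ± 2.01 Ldhb, the heart-type subunit. Of Prps1 and Prps2 RNA together, Prps1 held 85.0% ± 0.43 and Prps2 the rest. Prps1l3, a further PRPP synthetase isozyme outside the genes followed, was at 31.5 and 37.9 CPM in controls and is in none of these shares. These shares depend on the exon length assigned to a gene. With the longest transcript as length, Eno3 held 5.27% and Ldhb 16.2% in controls.

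At the hexokinase step Hk2, an inducible hexokinase bound to mitochondria, held 67.6% ± 2.93 in controls, Adpgk, which uses ADP in place of ATP, 23.6% ± 0.0244, and Hk1, the hexokinase of most tissues, 8.68% ± 3.05. Hkdc1, a further hexokinase, had 1 and 6 counts in the control libraries; PD gave 19 and 0 and YZ9 gave 7 and 0, and it was not tested. Both inhibitor groups had another mix. Hk2 held 56.9% (replicate 1) and 48.9% (replicate 2) under PD, and 50.5% and 56.4% under YZ9, below both controls at 65.6% and 69.7%. Adpgk held 33.8%, 35.9%, 35.2% and 34.3% in these 4 libraries, all above the controls at 23.57% and 23.60%. With PD the level of Adpgk itself overlapped the controls, at 58.4 and 81.3 CPM against 71.4 and 60.7 CPM (log2 fold change 0.08), while that of Hk2 lay below them. With 2 libraries against 2 the smallest 2-sided p of an exact permutation test is 0.333, so shares are given without a test.

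**Figure D2:**
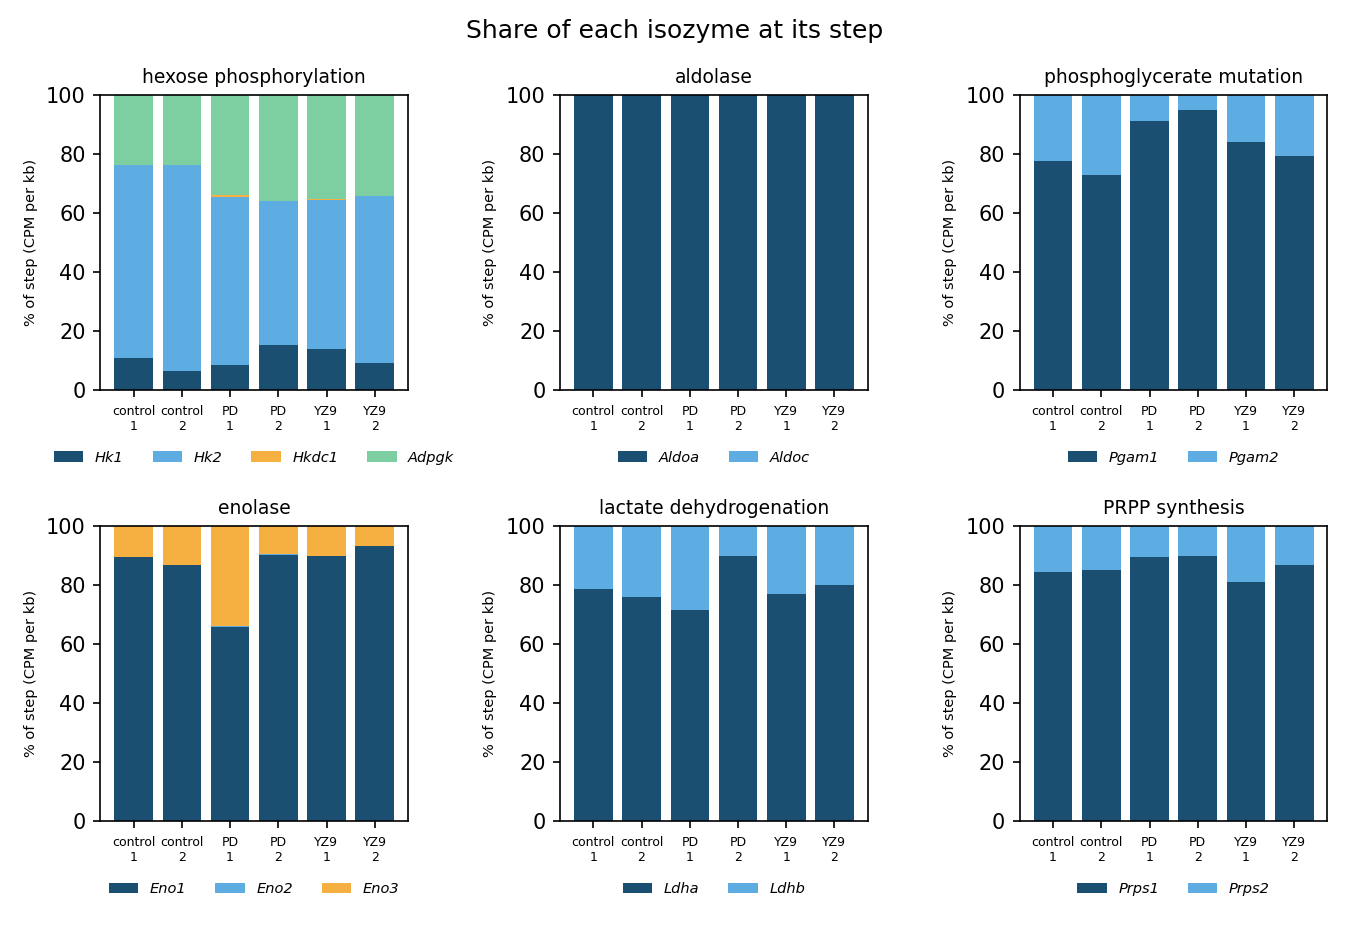
Share of each isozyme, in percent of the CPM per kilobase summed over its step, in each of the 6 libraries (numbers are replicates). Adpgk takes 33.8% to 35.9% of the hexokinase step in the treated libraries against 23.6% in controls, although its CPM with PD overlap the controls. Pgam2 takes 5.06% to 8.71% of the mutase step with PD against 22.3% and 26.9% in controls, and Eno3 34.0% of the enolase step in PD replicate 1 alone. By longest transcript that Eno3 share is 17.7%.

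Reads of some enzymes were split with near-identical copies. Transcripts of 73 other genes matched Gapdh over at least 300 bases at 95% identity or more, and 18.7% of the joint counts were assigned to them, most to the processed copy Gm13394, which matches Gapdh over 1000 bases at 99.9% identity. For Eno1, 20.9% of the joint counts lay on 3 copies, most on Eno1b. The levels of Gapdh and Eno1, and the enolase shares, are thus uncertain. For Gapdh and Eno1 the split with the main copy was alike in all libraries. Gm13394 took 13.6% to 16.1% of its joint counts with Gapdh, and Eno1b took 16.0% to 16.7% of its joint counts with Eno1. Ldhb shared 4.05% of its joint counts with a copy, and the other enzymes under 1%. Without strand in the library kit, reads in exons that overlap a gene on the other strand cannot be assigned, which touches Hk1, Adpgk, Gpi1, Aldoa, Tpi1, Gapdh, Gpd2, G6pdx and Rpe. On the same strand, Minpp1, Pkm, Pgls and Tkt share exon bases with another gene.

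PD was compared with control to ask which enzymes shifted under this inhibitor, in a series about glucose metabolism in gastrulation. No enzyme gene passed over all genes: of 31 tested, 0 were called higher and 0 lower by edgeR's quasi-likelihood test, where 0.0964% of all tested genes were called. An unadjusted p under 0.05 was reached by 3 of the 31, all lower, against 10.8% of all genes. DESeq2 on the same genes called 3 lower and 0 higher, against 4.04% of all genes, and edgeR without the low-count filter called 3 of 32, against 2.71%. In both, these were Hk2, Pgam2 and Prps2, and the authors' deposited table lists the same 3 genes at an adjusted p under 0.05, all lower. The median log2 fold change of the 31 was 0.08, against 0.00441 over all genes tested, and 24 of the 31 were within 0.5 of 0. The log2 fold change was above 0 in 22 of the 31, against 50.5% of all tested genes, and in 13 of 32 without PD replicate 2, against 48.2%.

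Pgam2 had the lowest log2 fold change of the enzymes. Its level was 13.2 and 16.3 CPM in controls, 3.77 and 2.82 CPM with PD, and 7.93 and 11.3 CPM with YZ9. Both PD libraries lay below all others, and the YZ9 libraries lay between them and the controls. The log2 fold change with PD was -2.16 (SE 0.33, adjusted p = 0.106), and -2.38 to -1.96 in the 6 fits that left out 1 library. The adjusted p was 1.07e-06 with DESeq2 and ranged from 1.07e-06 to 0.548 over 16 alternatives, of which 2 passed. Pgam1, which catalyses the same conversion of 3-phosphoglycerate to 2-phosphoglycerate, was at 108 and 104 CPM in controls and 93.1 and 125 CPM with PD (log2 fold change 0.04, SE 0.18), with 98.8 and 102 CPM under YZ9. The Pgam2 share of the step was 24.6% ± 3.25 in controls (SD, n = 2), 6.89% ± 2.58 with PD and 18.3% ± 3.33 with YZ9. Because Pgam2 is a gene of muscle, cardiac markers are given beside it. Of the 6 cardiac markers, all had a negative log2 fold change with PD (median -1.67), with 0 past the threshold and none at 0 counts in any library, and their sum was 1755 and 1735 CPM in controls, 1272 and 235 CPM with PD, and 1903 and 1069 CPM with YZ9. The 2 PD libraries differed widely in this sum, most of it Myl7, Tnnt2 and Myl4, and little in Pgam2. Actn2, a less abundant marker, was low in both, at 3.998 and 1.37 CPM against 19.97 and 19.01 CPM in controls. Nkx2-5 was at 1.85 and 0.564 CPM with PD against 15.1 and 3.39 CPM in controls. Myl4 alone had a PD library above both controls, replicate 1 at 214 CPM against 204 and 190 CPM. The part of cardiac cells in the Pgam2 values was not tested.

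Hk2 stood at 123 and 111 CPM in controls, 61.0 and 68.8 CPM with PD, and 87.2 and 87.1 CPM with YZ9. The 3 groups did not overlap, with controls highest and PD lowest. The log2 fold change was -0.85 with PD (SE 0.15, adjusted p = 0.131), -0.43 with YZ9 (SE 0.15, adjusted p = 0.377) and -0.42 for PD against YZ9 (SE 0.15, adjusted p = 0.373). With DESeq2 the PD value was -0.84 (adjusted p = 3.54e-04, range over 16 alternatives 3.54e-04 to 0.549). Hk1 was at 29.2 and 14.9 CPM in controls, 12.96 and 30.6 CPM with PD, and 34.8 and 20.6 CPM with YZ9, and its groups overlapped in full. Summed over the 4 genes of the step, hexokinase RNA was 31.5 and 26.8 CPM per kilobase in controls. PD libraries had 17.97 and 23.6 on this scale, YZ9 libraries 28.9 and 25.9. On merged exons both PD libraries lay below both controls. Of the YZ9 libraries, replicate 1 lay between the controls and replicate 2 below them. The YZ9 placement changed with gene length. By longest transcript both YZ9 libraries (43.06, 37.18) fell between the controls (43.07, 35.54). PD replicate 2, at 35.43, was then only just below control replicate 2. Without length scaling both YZ9 libraries (220, 193 CPM) also fell between the controls (224, 187 CPM).

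Prps2 encodes 1 of the synthetases that join ribose 5-phosphate and ATP into PRPP. It was at 59.5 and 73.1 CPM in controls, 32.2 and 34.8 CPM with PD, and 53.2 and 37.5 CPM with YZ9. All 4 treated libraries lay below both controls. The log2 fold change was -0.99 with PD (SE 0.23, adjusted p = 0.190; 0.0121 to 0.710 over 16 alternatives, lowest with DESeq2) and -0.55 with YZ9 (SE 0.22, adjusted p = 0.433). Prps1, the more abundant synthetase, was at 169 and 218 CPM in controls, 145 and 158 CPM with PD, and 117 and 129 CPM with YZ9. Here YZ9 was lowest. The fitted log2 difference from control was -0.65 for YZ9 (SE 0.17, adjusted p = 0.269) and -0.35 for PD (SE 0.17, adjusted p = 0.554). Summed, Prps1 and Prps2 were at 114 ± 19.8 CPM per kilobase in controls, 84.7 ± 5.17 with PD and 73.6 ± 1.39 with YZ9 (SD, n = 2). Prps1l3, a further isozyme, is not in this sum. It was at 31.5 and 37.9 CPM in controls, 32.1 and 36.0 CPM with PD, and 33.5 and 40.3 CPM with YZ9. Prps1, Prps2, Pgk1 and G6pdx lie on the X chromosome, and the groups differ in the sex of their libraries. In the male libraries alone, with 1 library for each inhibitor, the log2 fold changes were -1.04 for Prps2 and -0.42 for Prps1 with PD, and -0.30 and -0.70 with YZ9.

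Of the 31 tested enzymes Eno3 had the largest ratio between the 2 PD libraries. It was at 68.1 and 75.3 CPM in controls, 244 and 54.8 CPM with PD, and 56.6 and 35.2 CPM with YZ9. PD replicate 1 was above every other library and PD replicate 2 below both controls. The log2 fold change with PD was 1.06 (SE 0.62, adjusted p = 0.646). It turned to -0.39 without PD replicate 1 (adjusted p = 0.782), was 1.77 without PD replicate 2 (adjusted p = 0.0935). In the male libraries alone it was also 1.77 (adjusted p = 0.00615). There PD replicate 1, the high library, is the only PD library, the spread comes from the 2 controls alone, and the lone library is assumed to vary like them. With that limit the fit called 1 of 32 enzymes, against 2.63% of all genes. The same library had the highest sum of the 8 visceral endoderm markers, 91.1 CPM against 17.7 in PD replicate 2, 5.62 and 11.2 in controls, and 4.97 and 7.55 with YZ9. Rbp4 at 51.9 CPM and Afp at 34.3 CPM made up most of that sum. Cubn, Amn and Apob were each highest in another library, and Apoa1 and Apom were between 0 and 0.201 CPM throughout. It also had the highest sum of 8 endoderm and epithelial markers, 10920 CPM against 4689 to 6968 CPM in the other 5 libraries, most of it Krt18 at 5456 CPM and Krt8 at 4860 CPM. Cdh1, Sox17 and Trh were highest in YZ9 replicate 1. The part of these cells in the Eno3 value was not tested. Eno1 was at 1810 and 1558 CPM in controls and 1466 and 1611 CPM with PD, with 1549 and 1505 CPM under YZ9. The Eno1 share of the step was 65.9% in PD replicate 1 and 86.9% to 93.2% in the other 5 libraries. By longest transcript the gap was smaller, at 82.2% in PD replicate 1 and 94.1% to 97.0% in the other 5.

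**Figure D3:**
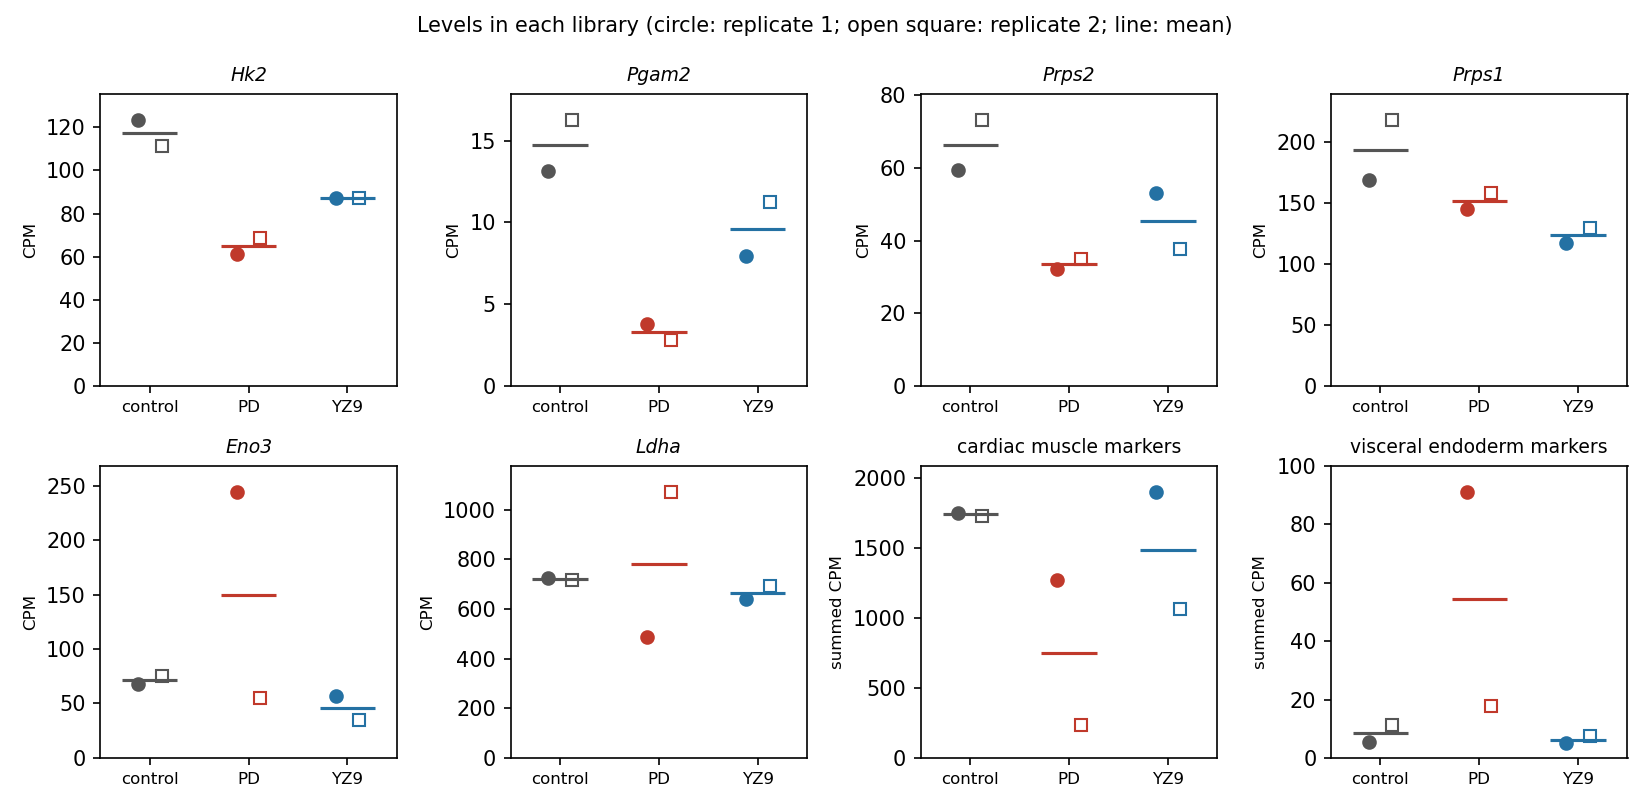
Level in each library (CPM, axes from 0) of 6 enzyme genes and summed CPM of 6 cardiac muscle and 8 visceral endoderm markers. Circles are replicate 1, open squares replicate 2 and lines the mean of a group. Hk2, Pgam2 and Prps2 are lower in both PD libraries than in both controls, while Eno3 at 244 CPM and the visceral endoderm markers at 91.1 CPM are highest in PD replicate 1.

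Ldha showed the same kind of split in the other direction. It was at 725 and 716 CPM in controls, 489 and 1072 CPM with PD, and 642 and 691 CPM with YZ9. The PD libraries lay on either side of the controls, and the log2 fold change with PD was 0.12 (SE 0.33, adjusted p = 0.961), -0.56 without PD replicate 2 and 0.57 without PD replicate 1. Ldhb was at 92.5 and 108 CPM in controls, 92.4 and 56.6 CPM with PD, and 90.1 and 81.8 CPM with YZ9, so the Ldha share was 71.5% and 90.0% in the PD libraries against 78.8% and 76.0% in controls. Hk1, Eno3, Ldha and Rpia differed at least 2-fold between the PD libraries, which held for Eno2 alone in controls and for 0 of the 31 with YZ9. Of the 31 enzymes, 23 were higher in PD replicate 2 than in PD replicate 1, 74.2% against 50.2% of all genes tested. Replicate 2 was higher for 10 of 31 in controls (32.3%) and for 12 of 31 with YZ9 (38.7%), whose replicate 2 is female as well. Of 13 HIF target genes outside glycolysis, 9 were higher in PD replicate 2 too, against 6 in replicate 2 of the controls and 6 in that of YZ9. Their sum was 645 CPM in PD replicate 1 and 859 CPM in PD replicate 2 against 617 and 632 CPM in controls. In CPM, the largest rises from PD replicate 1 to PD replicate 2 were those of P4ha1 (156 to 269 CPM) and P4ha2 (116 to 199 CPM). Ndrg1 (14.8 to 36.9 CPM), Ankrd37 (1.65 to 4.03 CPM), Vegfa and Car9 rose by larger factors from lower levels. Adm, Higd1a, Egln1 and Egln3 were lower in PD replicate 2. PD replicate 2 was also the female library, and the part of sex or of HIF in the enzyme values was not tested.

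No other enzyme reached an unadjusted p under 0.05 with PD. Aldoc, at 1.01 and 0.790 CPM in controls, was at 1.19 and 2.21 CPM with PD and 0.761 and 1.35 CPM with YZ9 (PD log2 fold change 0.91, SE 0.59, adjusted p = 0.690). Its PD values lay above both controls, at 21 to 55 counts in these 4 libraries. Tkt, the transketolase that links the pentose phosphate pathway back to glycolysis, was at 133 and 96.4 CPM in controls and 142 and 144 CPM with PD, with 139 and 145 CPM under YZ9 (PD log2 fold change 0.32, SE 0.18, adjusted p = 0.634). G6pc3, a glucose 6-phosphatase of most tissues, was at 28.6 and 26.4 CPM in controls and 33.8 and 34.5 CPM with PD, with 34.4 and 32.1 CPM under YZ9. In all, both PD libraries lay above both controls for 3 of the 31 enzymes (G6pc3, Aldoc and Tkt), against 19.2% of all genes, and below for 5 (Hk2, Pgam2, Ldhb, Prps1 and Prps2), against 19.5%. Neither share of the 31 was larger than that of all genes. Ldhb lay below by a narrow margin, at 92.38 CPM in PD replicate 1 against 92.49 CPM in control replicate 1, with its copy not counted.

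YZ9 was compared with control to ask the same of an inhibitor known to act on PFKFB3. No enzyme gene passed in edgeR (0 of 31 higher, 0 lower, against 0.00642% of all genes), 3 reached an unadjusted p under 0.05, all lower, against 11.3% of all genes, and DESeq2 called 0, against 3.33% of all genes. Without the low-count filter 0 of 32 passed (2.11% of all genes), and 0 of 32 in the male libraries alone (1.12%), where YZ9 has 1 library. The authors' deposited table lists 0 of the 32 at an adjusted p under 0.05. The median log2 fold change of the 31 was 0.05 against 0.00214 over all genes tested, and the values ran from -0.66 for Eno2 to 0.47 for Adpgk. The comparison shares its controls with that of PD. The 3 lower genes were Prps1, Hk2 and Prps2, given above. Adpgk was at 71.4 and 60.7 CPM in controls and 97.9 and 85.3 CPM with YZ9, both above the controls, and at 58.4 and 81.3 CPM with PD (YZ9 log2 fold change 0.47, SE 0.21, adjusted p = 0.461). The value of Pgam2 was -0.61 on the log2 scale (SE 0.32, adjusted p = 0.514), and that of Eno3 -0.65 (SE 0.62, adjusted p = 0.717). For both, the YZ9 libraries lay below both controls. Eno2, at 2.10 and 1.02 CPM in controls and 1.16 and 0.809 CPM with YZ9, overlapped, and was at 2.50 and 2.09 CPM with PD.

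By part of the pathway, most YZ9 values of lower glycolysis were below 0 and those of the pentose phosphate pathway above 0. Of the 11 enzymes from triose phosphate to lactate, 9 had a negative log2 fold change (median -0.19) and 8 lay below both controls in both YZ9 libraries, and Gapdh alone lay above. The 8 were Tpi1, Pgk1, Pgam1, Pgam2, Eno1, Eno3, Ldha and Ldhb. Pgk1, which makes ATP at the phosphoglycerate kinase step, was at 161 and 183 CPM in controls and 142 and 150 CPM with YZ9, and at 181 and 177 CPM with PD (YZ9 log2 fold change -0.23, SE 0.14, adjusted p = 0.573). All 7 pentose phosphate enzymes had a positive value (median 0.28). Rpia and Rpe were, however, at -0.31 and -0.020 without YZ9 replicate 2 and at -0.022 and -0.0074 without control replicate 2, and Rpia was at -0.59 with a sex term. Of the 7, G6pdx, Pgls, Pgd, Tkt and Taldo1 lay above both controls. Pgls, the lactonase of the oxidative branch, was at 69.3 and 53.4 CPM in controls and 92.2 and 73.4 CPM with YZ9, and at 63.0 and 73.1 CPM with PD (YZ9 value 0.43 on the log2 scale, SE 0.20, adjusted p = 0.483). Pgd, the second NADPH-forming enzyme, was at 81.4 and 64.1 CPM in controls and 94.0 and 91.0 CPM with YZ9. Taldo1, the transaldolase, was at 142 and 154 CPM in controls and 170 and 179 CPM with YZ9, and at 152 and 169 CPM with PD. Of the isomerase and epimerase of the sugar-rearranging branch, Rpe ranged from 27.2 to 30.8 CPM and Rpia from 1.31 to 5.11 CPM over the 6 libraries. Over all 31 enzymes, 9 lay above and 11 below both controls, against 21.1% and 24.5% of all genes. None of these pentose phosphate or triose enzymes reached an unadjusted p under 0.05, and no test of the parts was made. With PD, the 7 pentose phosphate enzymes also had values above 0 (median 0.15, from the same controls), with Tkt alone above both controls. Of these signs 5 turned when 1 library was left out: without PD replicate 2, G6pdx was at -0.11, Pgd at -0.071 and Rpia at -0.67, and without control replicate 2, Pgls was at -0.029 and Rpe at -0.0074.

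**Figure D4:**
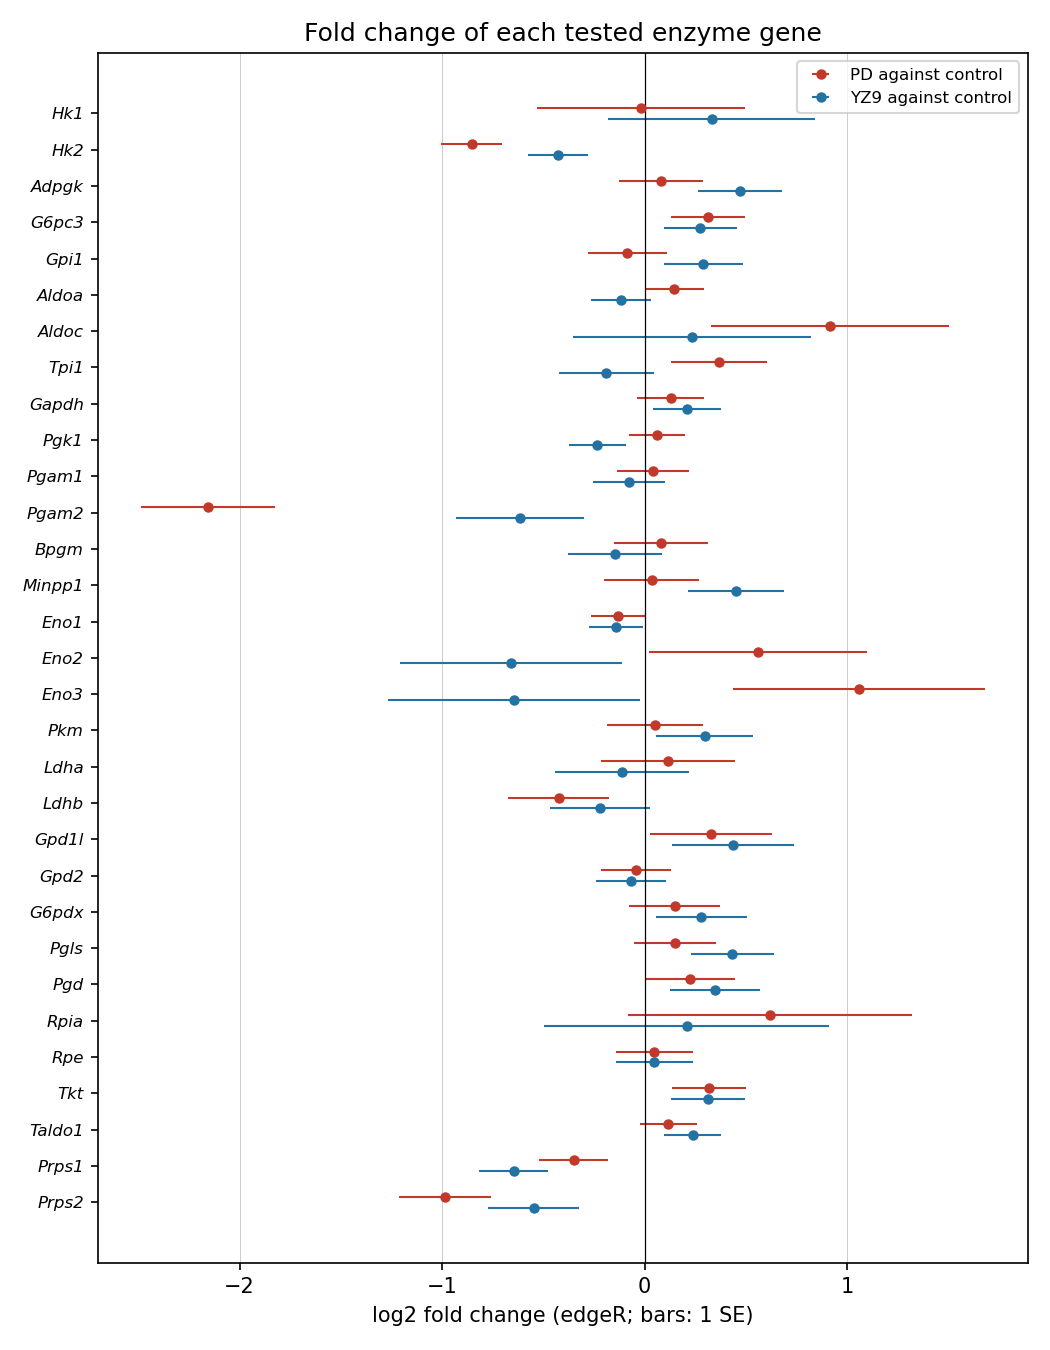
Log2 fold change of the 31 tested enzyme genes with PD (red) and with YZ9 (blue) against the same 2 controls, from edgeR; bars are 1 SE. Pgam2 at -2.16, Prps2 at -0.99 and Hk2 at -0.85 lie farthest below 0 with PD, most other values lie within 0.5 of 0, and with YZ9 the pentose phosphate genes lie at 0.05 to 0.43.

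PD and YZ9 were compared directly. Of the 31 enzymes 0 passed in edgeR, against 0.122% of all genes, and 3 reached an unadjusted p under 0.05, with Eno3 higher and Pgam2 and Hk2 lower in PD, against 11.5% of all genes. On the log2 scale Pgam2 stood at -1.54 for PD against YZ9 (SE 0.33, adjusted p = 0.182), and was the 1 enzyme called by DESeq2 (adjusted p = 0.00165, range over 16 alternatives 0.00165 to 0.446), against 3.43% of all genes. Eno3 stood at 1.70 (SE 0.63, adjusted p = 0.398), which was 0.26 without PD replicate 1. Tpi1, the isomerase of the triose phosphates, was at 188 and 301 CPM with PD and 153 and 180 CPM with YZ9, against 181 and 199 CPM in controls (log2 fold change 0.56, SE 0.24, adjusted p = 0.445). The PD libraries lay above the YZ9 libraries. Without the low-count filter 2 of 32 passed, Pgam2 and Eno3 (2.29% of all genes). In the male libraries 1 passed, Eno3 (0.811%), in a fit that sets 1 PD library against 1 YZ9 library with the spread of the 2 controls. The value was above 0 for 16 of 31, against 49.8% of all genes. Both PD libraries lay above both YZ9 libraries for 6 enzymes, against 21.6% of all genes, and below for 8, against 21.4%.

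The main genes of the other steps overlapped between controls and PD. Gpi1, the isomerase of glucose 6-phosphate, was at 140 and 106 CPM in controls, 120 and 112 CPM with PD, and 166 and 134 CPM with YZ9. Aldoa was at 1042 and 978 CPM in controls, 1020 and 1217 CPM with PD, and 991 and 871 CPM with YZ9. Gapdh, the dehydrogenase that forms NADH, was at 403 and 325 CPM in controls, 362 and 434 CPM with PD, and 433 and 409 CPM with YZ9. In these 3 genes no PD library pair cleared the controls, and Gapdh alone had both YZ9 libraries above them. Pkm, the pyruvate kinase gene whose splice forms are not separated in these counts, was at 1958 and 1366 CPM in controls, 1416 and 2026 CPM with PD, and 2186 and 1893 CPM with YZ9. Its YZ9 and control libraries overlapped as well.

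Bpgm, which makes the 2,3-bisphosphoglycerate that lowers the oxygen affinity of haemoglobin in red cells, was set beside the red-cell markers. The 8 markers summed to 2597 and 7802 CPM in controls, 491 and 7135 CPM with PD, and 20.96 and 1239 CPM with YZ9. Bpgm was at 33.2 and 46.7 CPM in controls, 37.4 and 47.1 CPM with PD, and 36.8 and 35.2 CPM with YZ9. It was highest in control replicate 2 and PD replicate 2, where the markers were highest as well. It was lowest in control replicate 1, where the markers were at 2597 CPM. The part of red cells in the Bpgm values was not tested. Minpp1, a phosphatase that can remove a phosphate from 2,3-bisphosphoglycerate, was at 76.5 and 51.5 CPM in controls, 63.3 and 67.7 CPM with PD, and 99.3 and 75.9 CPM with YZ9. Of the glycerol 3-phosphate shuttle, Gpd2, the mitochondrial dehydrogenase, was at 63.1 and 67.6 CPM in controls, 66.6 and 60.3 CPM with PD, and 55.6 and 69.1 CPM with YZ9. Gpd1, a form outside the 32 genes, was at most at 0.236 CPM in any library, and Gpd1l ranged from 13.6 to 24.9 CPM.

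Isozymes and side enzymes outside the 32 genes were also read. Of 24 such genes listed, 23 were in the tables and 10 were abundant enough to be tested, with 0 past the threshold in any comparison. Pgk2, the testis form of phosphoglycerate kinase, and Hk3, G6pc and G6pc2 had 0 counts in every library. Pgm1, a phosphoglucomutase that links glycogen to glycolysis, was well above these, at 118 and 102 CPM in controls, 45.6 and 102 CPM with PD, and 81.6 and 115 CPM with YZ9. Of the 25 other genes of glucose use, 22 were tested and 0 passed in either direction in any comparison. Among them Slc2a1, a glucose transporter, was at 2068 and 1169 CPM in controls, 3121 and 6285 CPM with PD, and 2504 and 3350 CPM with YZ9, and Pfkp, a phosphofructokinase, at 186 and 154 CPM in controls, 122 and 152 CPM with PD, and 117 and 79.2 CPM with YZ9. Slc2a3, another glucose transporter, had the smallest edgeR adjusted p of the 22 against control, 0.106 with PD and 0.134 with YZ9. It was at 455 and 282 CPM in controls, 1154 and 1925 CPM with PD, and 1404 and 1713 CPM with YZ9. Of 13 HIF targets tested, 0 passed, with a median log2 fold change of 0.25 with PD and 0.16 with YZ9.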

How the data were processed

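RNA of 6 libraries was sequenced, 2 each of control, PD and YZ9 explants. Per the submitters' processing notes, CASAVA 1.8.2, STAR 2.7.9a, DESeq2 1.40.1 and GRCm38 were used; the counting step and its annotation: not given in the sources used here. The deposited tables hold counts per gene, a signal (the counts divided by size factors), log2 fold changes, p-values and a test score, all made by the authors. Here the deposited counts of 46078 genes were fitted in 1 model with edgeR 4.0.16 in R 4.3.3 (quasi-likelihood test, TMM scaling, low-count filter at 10 counts, 15568 genes kept, Benjamini-Hochberg adjustment over all of them, threshold 0.05). Levels are CPM, or CPM per kilobase of merged GENCODE M21 exons; SE is the log2 fold change over the root of F. Of the 32 enzymes 31 passed the filter. The 32 genes, the marker lists and the tests were chosen with earlier results of these data known. Values in every library are given for the most abundant isozyme of each step, for the 5 largest fold changes and 5 smallest p of each inhibitor comparison, and for genes that did not overlap controls with a log2 fold change of at least 0.5; further enzymes are named to complete a step. Same-numbered libraries did not all correlate, so replicate numbers were not used as pairs. Alternatives were other scalings, filters and tools (DESeq2 1.42.0, limma 3.58.1), a replicate block, a sex term, subsets and other gene lengths. The fits were tested on simulated data. Promoter windows are RefSeq's. Replicates of a group differed beyond counting error (chi-square per gene 55.2, 96.9 and 62.6).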

Additional observations from a re-analysis of the deposited data

How the results depend on the processing

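Main counts of enzymes past the threshold were 0 in each comparison. With PD against control they were 3 without the low-count filter, 3 with DESeq2 and 1 (Eno3) in the male libraries alone, a setting added after seeing the data. For PD against YZ9 they were 2, 1 and 1. The male libraries hold 1 PD and 1 YZ9 library, so those calls take their spread from the 2 controls and assume that the lone libraries vary like them. Over all genes, PD against control (15 called) gave 712 without the filter, 629 with DESeq2, 1 with a replicate block, 124 with a sex term, 428 in the male libraries and 0 to 33 with 1 library left out. YZ9 against control (1 called) gave 556, 519, 3, 122, 183 and 0 to 9 in the same order, and 5 from its 4 libraries alone. PD against YZ9 (19 called) gave 601, 534, 12, 173, 132 and 0 to 35, with 34 by limma-trend, 0 from its 4 libraries alone and 29 with the newer edgeR fit. With the replicate block the adjusted p with PD was 0.152 for Hk2, 0.124 for Pgam2 and 0.218 for Prps2. Deviations of same-numbered libraries correlated at -0.0985 (control with PD), 0.166 (control with YZ9) and 0.353 (PD with YZ9). With 2 libraries a group, these values cannot show whether the numbers pair the libraries.

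Some log2 fold changes turned sign, and the cause was not tested. With PD, Adpgk was -0.18 in the male libraries and -0.18 to 0.30 with 1 library left out, where Eno3 was -0.39 to 1.77 and Pgls -0.029 to 0.35. With YZ9, Aldoc was -0.26 with the sex term, -0.23 in the male libraries and -0.23 to 0.59 with 1 library left out, and Eno3 was 0.072 with the sex term. For PD against YZ9, Tkt was -0.0042 without the filter and -0.0023 with a higher filter, and -0.033 to 0.018 with 1 library left out.

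Isozyme shares moved with gene length (longest transcript, then no length scaling). For Hk2, control values were 54.4% and 57.3%, PD values 39.2% and 42.0%, YZ9 values 39.6% and 42.4%. For Adpgk they were 32.7% and 32.2%, 44.4% and 44.4%, and 44.3% and 44.3%. For Eno3 they were 5.27% and 4.12% in controls and 3.73% and 2.90% with YZ9. With PD, Eno3 held 17.7% and 14.3% in replicate 1, against 34.0% on merged exons, and 4.22% and 3.28% in replicate 2. For Ldhb they were 16.2% and 12.2% in controls and 15.2% and 11.4% with YZ9. Without length scaling Pgam2 held 12.2%, 3.05% and 8.67%, and Prps2 25.6%, 18.1% and 26.8%, in control, PD and YZ9; Prps2 with PD was 10.51% by longest transcript.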
